A study of Mus musculus with 17 samples.

Results

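Of the 1211657 loops that H3K27ac HiChIP found over 17 libraries of differentiating mouse cells, 2754 were joined by at least 10 read pairs in the bulk libraries and by 0 in the libraries of sorted double positive cells. They are called absent loops here. They were chosen by their read pairs: overlapping anchors of all libraries were joined, loops were put on the joined anchors, and read pairs were summed over the 12 bulk and over the 5 double positive libraries. Only autosomal loops outside chromosome 1 from 130 Mb, chromosome 2 from 150 Mb and chromosome 11 up to 3.2 Mb were taken, and the parts left out held a further 1293 such loops. All libraries came from embryoid bodies (EBs) of the R1 line of mouse embryonic stem cells, formed in hanging drops and grown with 0.5 µM retinoic acid (RA) to RA-day 4. The 12 bulk libraries hold unsorted EB cells, the double positive cells among them. The 5 double positive libraries, which the labels call cluster2, hold cells sorted for both surface proteins EpCAM and CD38, in 5 independent runs of sorting. In a bulk library, fewer cells of a type and fewer contacts per cell cannot be told apart.

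HiChIP joins DNA ends that lie close together in the nucleus, enriches the fragments with an antibody and reads both ends, so that each read pair reports a contact between a pair of regions. H3K27ac, an acetyl mark on histone H3, is laid down at active promoters and enhancers, and a loop in these data is a contact in which such regions take part. RA binds nuclear receptors at response elements near HOX genes and genes of its own metabolism. In EBs it drives many cells towards neural fates, while other cells form endoderm, and an enhancer used in one fate is often without the mark in another.

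Marker genes were compared between the groups as a check of the labels. Read pairs at the start site (TSS) of Krt18, a keratin of simple epithelia, came to 1473 ± 241 CPM (SD, n = 5) in double positive and to 53.4 ± 24.1 CPM (SD, n = 12) in bulk libraries. CPM here is the number of read pairs per 1000000 read pairs of the library that lay in loops. Gata4, an endoderm factor, had 519.5 ± 117 and 43.4 ± 15.0 CPM, and Epcam had 60.6 ± 41.5 and 7.91 ± 6.79 CPM. At neural markers the order was the other way, with 12.6 ± 18.2 against 186 ± 99.2 CPM for Sox11 and 19.2 ± 14.8 against 226 ± 90.3 CPM for Pou3f2. Pou5f1, a stem cell factor, had 137 ± 77.7 CPM in double positive and 19.7 ± 13.4 CPM in bulk libraries. Nanog had 0 CPM in all 5 double positive libraries and 9.21 ± 6.67 CPM (0 to 19.7) in bulk libraries, too little to read a loss from the 0.

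Sequences of regions that carry absent loops are given first, both from the mm9 reference and 5′ to 3′ on the strand of the gene, with matches to the searched motifs in capitals. The first ends at the TSS of Dhrs3 (chr4:144482530-144482729, plus strand), the RA pathway gene with the most read pairs in absent loops, and the second at that of the neuronal factor gene Nhlh2 (chr3:101813868-101814067, plus strand).
Dhrs3 TSS: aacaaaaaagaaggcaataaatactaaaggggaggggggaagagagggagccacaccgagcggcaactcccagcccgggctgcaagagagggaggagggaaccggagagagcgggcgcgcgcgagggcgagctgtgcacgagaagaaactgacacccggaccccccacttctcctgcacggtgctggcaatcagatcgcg
Nhlh2 TSS: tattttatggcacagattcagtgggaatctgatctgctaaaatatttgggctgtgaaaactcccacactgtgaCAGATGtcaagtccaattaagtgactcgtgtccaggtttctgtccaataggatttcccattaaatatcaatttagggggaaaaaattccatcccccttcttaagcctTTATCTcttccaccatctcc
The Dhrs3 window held no match to a searched motif. In the Nhlh2 window the capitals mark the E-box CAGATG, a core that bHLH factors bind, and the reverse complement of AGATAA, a core of GATA sites. Among all 45962 windows of the same 200 bases before a TSS, 9.85% held CAGATG and 6.57% AGATAA on either strand, so such matches are frequent and describe the letters only.

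Absent loops were counted against a shallow sorted pool. The 5 double positive libraries held 409248 read pairs in loops (50508 to 118179 per library) and the 12 bulk libraries 1616066 (65148 to 241068). A count of 0 over the double positive pool allows a level of up to 7.33 CPM, taking 3 counts as the floor, while 10 bulk read pairs equal 6.19 CPM. Of the 2754 absent loops, 395 (14.3%), those with at least 20 bulk read pairs, had a bulk level whose exact 95% Poisson interval lay wholly above that floor. Only 43 of these 395 had both anchors in double positive loops. The rest had an anchor outside them, where a 0 may be set by which peaks were called. The floor and the interval cover counting error only, and whether PCR copies of a molecule remain in the counts was not tested. The same counts chose the loops, and neither the floor nor the interval allows for that choice. On simulated libraries with 200 loops emptied in the double positive pool, the rule chose 869 to 961 loops. It thus also takes loops without a group difference. For absent loops outside these 395 a lower level in double positive cells was not detectable at this depth. Of the 5022 loops with at least 10 bulk read pairs in the same regions, 54.8% were absent loops, a share that the rule itself sets. The number of absent loops was 1772 when bulk replicate 2, the deepest library with 241068 read pairs, was left out. Bulk read pairs per absent loop ran from 10 to 189 with a median of 12, and 1384 loops (50.3%) had 10 to 12. At the threshold, 611 loops had exactly 10 bulk read pairs and were taken, 830 had 9 and were not, and 197 loops with at least 10 were left out for a single double positive read pair.

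The ends of most absent loops were not all in use in the sorted libraries. Only 197 absent loops (7.15%) joined a pair of anchors that both appeared in double positive loops, 2170 (78.8%) had 1 such anchor and 387 (14.1%) had 0. For an anchor outside double positive loops, the files leave unknown whether it was called as a peak in the sorted cells at all, so no fold is given for its loops. Where 1 anchor lay in double positive loops and 1 anchor of the loop lay within 5 kb of a TSS of a protein-coding gene (898 loops), the TSS anchor was the one that double positive cells also used in 817 (91.0%). These 817 contacts ran from a promoter region used in both groups to a region away from a TSS. That the other end was seen in bulk loops only follows from how the 898 loops were taken. The share was not compared with that of promoter anchors in general, so nothing further is read from it.

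The 2754 loops spread over 3779 anchors, of which 2934 took part in 1 absent loop and 106 in at least 5. In bulk they recurred between libraries: 2448 had a read pair in at least 6 of the 12 libraries and 35 in all 12, while 43 owed over 50% of their read pairs to 1 library. Together they held 41014 read pairs, or 2.54% of the bulk pool and between 1.71% and 3.38% of a bulk library. They lay in 758 windows of 1 Mb, 297 of which held a single one. The window of chromosome 11 from 96 to 97 Mb, with the HoxB genes and Skap1, held 147 (5.34%), more than any other. Next came the window from 102 to 103 Mb on chromosome 15 with the HoxC genes (42 loops) and that from 144 to 145 Mb on chromosome 4 with Dhrs3 and Vps13d (38 loops).

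Absent loops were shorter and less often had a promoter anchor than loops that double positive cells shared. The comparison took the 2268 loops with at least 10 bulk read pairs and at least 1 double positive read pair in the same regions, called shared loops, and measured both sets within each of the 12 bulk libraries. Span, promoters and base content were not used to choose the loops. With each read pair counted, the median span came to 11506 ± 774 bp (SD, n = 12) for absent and 19504 ± 726 bp for shared loops, and it was lower for absent loops in 12 of 12 libraries. Loops with a promoter anchor, meaning one at most 5 kb from a TSS, held 52.8% ± 2.33 of the read pairs of absent against 78.8% ± 1.52 of those of shared loops, again lower in 12 of 12. The mean G and C content of the anchors was 48.7% ± 0.310 against 51.5% ± 0.248, lower in 12 of 12. Each of the 3 differences gave p = 0.000488 in a two-sided exact paired permutation test over sign changes, the smallest p that 12 pairs allow, and 0.000488 after Benjamini-Hochberg adjustment over the 3. The same sets of loops were measured in every library, so this p covers the spread between libraries and not that between loops. Shared loops have both anchors in double positive loops by construction, and the difference in span turned round when absent loops had to meet that too, with absent loops longer by 66172 bp on average. It also turned round, to 9095 bp longer, over spans of at least 20 kb. The promoter share and the G and C content stayed lower under both settings.

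**Figure D1:**
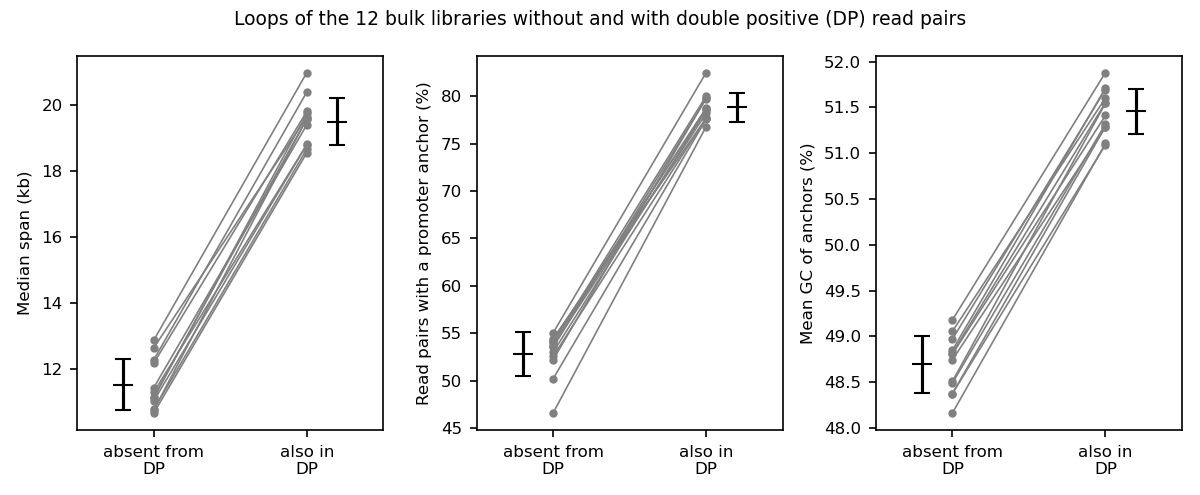
Median span in kb, share of read pairs in loops with a promoter anchor and mean GC of the anchors in each of the 12 bulk libraries (grey points, joined within a library), for loops absent from and loops also seen in double positive (DP) cells. Black bars are the mean and SD over libraries, the axes do not start at 0, and every line rises from absent to shared loops.

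Counted per loop, the median span of absent loops was 12329 bp, with quartiles of 7616 and 35298 bp and a longest span of 1495510 bp. It was 8815.5 bp for loops with 0 anchors in double positive loops, 12106 bp with 1 and 93485 bp with 2. A region on chromosome 11 from 50 kb before Hoxb9 to 50 kb past Copz2 weighed on the last value: it held 59 of the 197 loops with both anchors in double positive loops, at a median of 278821 bp, and the other 138 had a median of 64486 bp. Of all absent loops, 1275 had 0 promoter anchors, 1064 had 1 and 415 had 2, while shared loops counted 412, 717 and 1139. Of the 1275, 499 ran inside the body of a single protein-coding gene and 663 touched no such gene. Both anchors lay near the TSS of the same gene in 290 loops, and at those of different genes only in 125.

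Libraries that took no part in the choice were measured next. When each library was left out in turn and loops were chosen from the other 16, a left out bulk library had 1.77% ± 0.301 of its read pairs (SD, n = 12, 1.29% to 2.35%) in the chosen loops. A left out double positive library had 0.0728% ± 0.0137 (SD, n = 5, 0.0554% to 0.0931%), or 28 to 88 read pairs over 2781 to 2822 loops. The groups did not overlap, at a difference of 1.70 percentage points. No p is given for this procedure, because on simulated libraries without a group difference its permutation test called a difference in every draw, in the opposite direction: a left out library leaves its own group smaller when loops are chosen. Leaving out 1 library of each group at once, added after the data were seen, called no difference in draws without one. These draws were Poisson counts from a single pooled profile. They held no further spread between libraries and no difference in peak calling, so the check does not cover these. On the data, leaving out 1 library of each group gave 1.82% ± 0.314 and 0.0644% ± 0.0133, a difference of 1.75 (two-sided exact permutation p = 0.000162, the smallest it can give). Most of this difference came from loops with an anchor that no double positive loop used. For these a 0 in a left out double positive library may be set by which peaks were called, which the files leave unknown. Over loops with both anchors in loops of the other double positive libraries, leaving out 1 library of each group gave 0.195% ± 0.0644 and 0.0619% ± 0.0115, a difference of 0.133 percentage points (exact permutation p = 0.00097). This version with the anchor condition was not run on simulated libraries, so its p lacks that check.

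**Figure D2:**
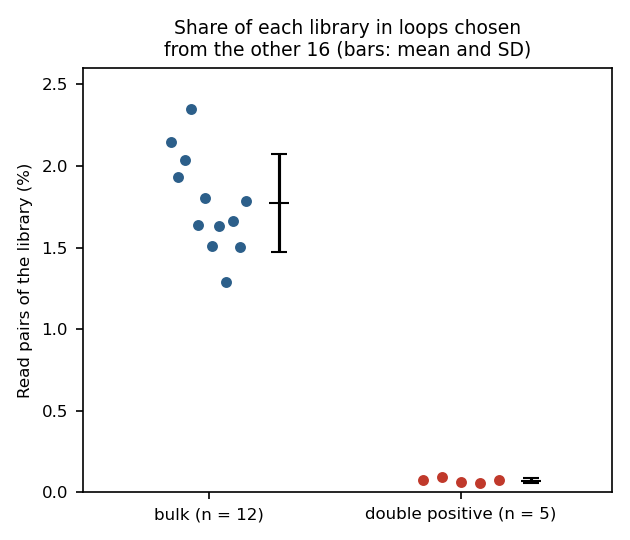
Percent of each library's read pairs that lay in loops chosen from the other 16 libraries, for 12 bulk and 5 double positive libraries. Points are libraries and bars the mean and SD, and all bulk points (1.29% or more) lie above all double positive points (0.0931% or less).

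The strongest absent loop had 189 bulk read pairs and joined chr8:19783140-19785881 to chr8:20019148-20021871 (mm9). Its bulk libraries had 3 to 42 read pairs with a median of 13.5, all 12 had at least 3, and all 5 double positive libraries had 0. No protein-coding TSS lay within 5 kb of its anchors, which overlapped the annotated genes Gm10060 and 2610005L07Rik, and neither anchor was in a double positive loop. Of the 32-base words of these anchors, 77.2% and 78.1% occurred more than once in the reference, with a median of 3 copies, and the part of repeated sequence in this count was not tested. The second loop, with 134 read pairs (5 to 42 per library, median 8.0), joined adjacent anchors at chr11:116603131-116610281 and chr11:116610797-116621263 around Gm11735 and St6galnac1, a sialyltransferase gene, and its first anchor held 52.1% such words. Another, with 77 read pairs at Dux, a homeobox gene of tandem copies, held 72.5% and 52.2%. Over all absent loops such anchors were few: 39 loops (1.42%) had an anchor with over 50% repeated words, against 0.397% of shared loops.

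The strongest absent loops with both anchors in double positive loops lay in Skap1 and in 2810055G20Rik. A loop of 44060 bp within introns of Skap1, an adaptor gene of immune cells, joined chr11:96436143-96441671 to chr11:96480870-96485064 by 104 bulk read pairs. All 12 bulk libraries had 1 to 26 of them with a median of 6.5, and the pooled bulk level was 8.78 times the double positive pool's floor. Such a ratio makes no allowance for counting error in bulk, and the same counts were used to choose the loop. Its first anchor had 6, 11, 7, 0 and 7 read pairs in other loops of the 5 double positive libraries, and its second had 14, 8, 2, 5 and 5, so the sorted cells used both anchors, at low counts. In the bulk libraries the first anchor had 1380 read pairs in other loops and the second 623. A loop of 11969 bp within 2810055G20Rik on chromosome 16, from an anchor at chr16:77404439-77408298 to one at chr16:77412791-77423884, had 100 read pairs over 11 of 12 bulk libraries (0 to 19, median 6.0). Its pooled bulk level was 8.44 times the same floor, and its anchors had 16 and 5 double positive read pairs elsewhere.

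Other strong absent loops were mostly short. Between chr15:102862627-102867248 at Hoxc4 and chr15:102872023-102873745 beyond it there were 69 read pairs (0 to 14 per library, median 4.5). An intergenic pair of anchors on chromosome 9 from 41170705 to 41185994 had no coding TSS nearer than 202830 bp and 67 read pairs (1 to 19). Introns of Vps13d, a gene of membrane lipid transport, were joined by 64 (0 to 14), an intergenic pair at chr11:32012278-32020269 by 62 (1 to 11) and introns of Cuedc1 by 58 (0 to 13). The Uros and Bccip promoter, which these genes of heme synthesis and of genome maintenance share, was joined to its flank by 56 (0 to 12). The Ephb2 promoter, which serves an ephrin receptor of axon guidance, was joined to a region 4155 bp away by 55 (0 to 10). The intergenic pair on chromosome 11 was again in double positive loops at both ends, where the anchors had 16 and 18 read pairs in other loops. Its pooled bulk level was 5.23 times the floor. Each of these loops had 0 in all 5 double positive libraries.

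**Figure D3:**
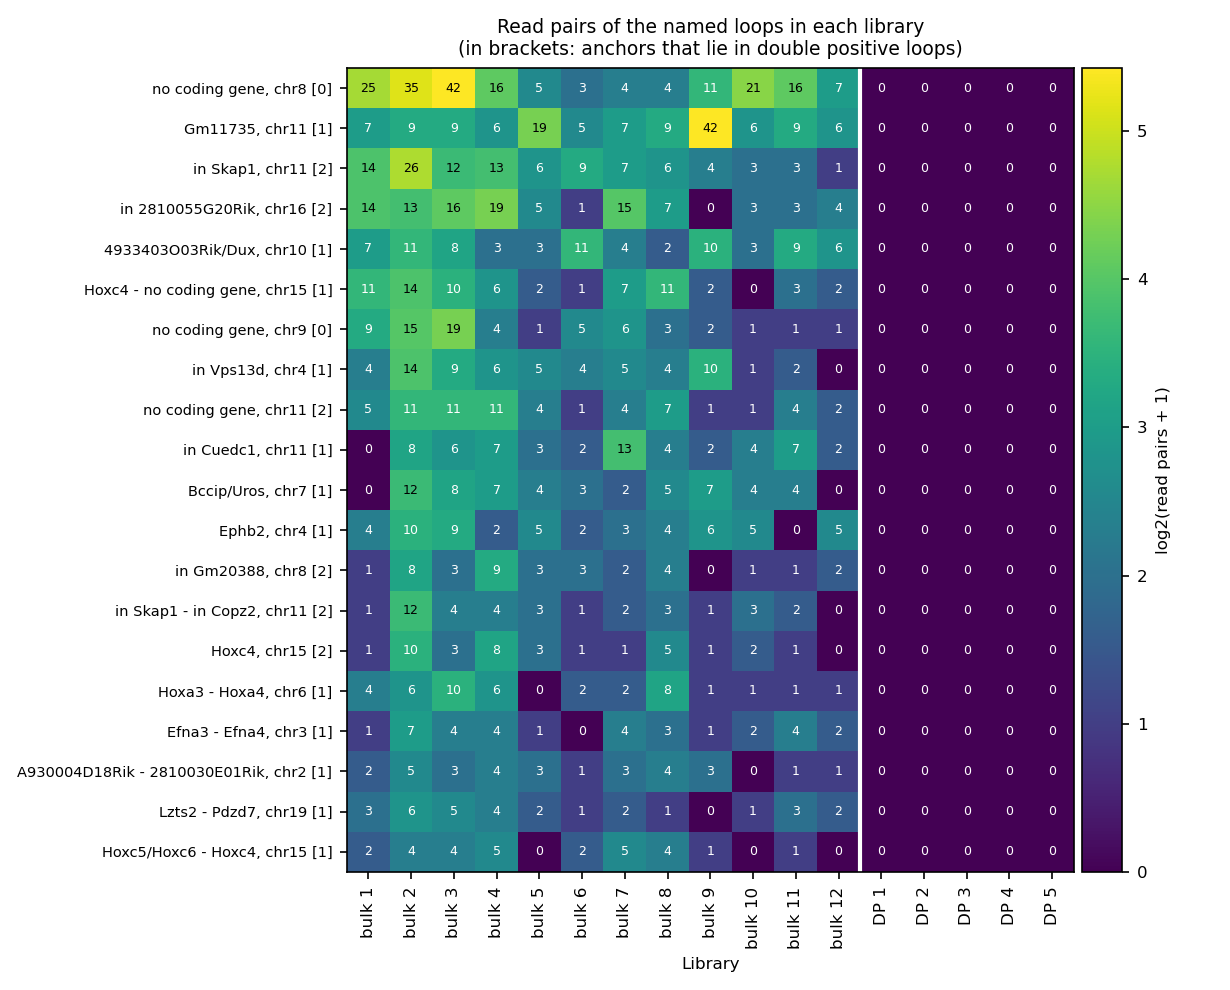
Read pairs (number and colour, log2 of the read pairs plus 1) of 20 named loops in each of the 12 bulk and 5 double positive (DP) libraries. The number in brackets counts the anchors of the loop found in double positive loops, and the double positive columns are 0 throughout by the choice of the loops.

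The anchor in the most absent loops was the Skap1 intron region at chr11:96436143-96441671, 110148 bp past the Skap1 TSS. It took part in 23 of them, which held 652 of its 1484 bulk read pairs (43.9%), and 8 of its partners lay within 5 kb of a TSS, at Hoxb2, Hoxb3, Hoxb4, Hoxb5, Hoxb6, Hoxb7 and Hoxb8. HOX genes of the HoxB cluster code for homeodomain factors that set position along the body axis, and RA switches on those at the early, anterior end of the clusters. Over all its loops the Skap1 anchor had 538 to 1365 CPM in bulk libraries with a median of 792, and 50.8, 128, 137, 0 and 67.6 CPM in the 5 double positive libraries. All double positive values lay below all bulk values, but the absent loops are part of this sum.

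From the HoxB cluster to anchors within the body of Skap1, 185 to 391 kb past the Hoxb2 TSS, there were 48 absent loops with 839 bulk read pairs and spans of 200491 to 470907 bp. In 35 of these 48, both anchors lay in double positive loops, so the sorted cells had read pairs at each end and 0 between them. The counts at these ends were low. Over all its loops the first Skap1 anchor had 31 double positive and 1484 bulk read pairs, and the Hoxb5 anchor 35 and 699. Most of the 48 loops had fewer than 20 bulk read pairs, where a lower level in double positive cells was not detectable. The whole region from Hoxb9 to Copz2 held 138 absent loops with 2547 bulk read pairs, and 66 shared loops with 1975. The next anchors by number were the Hoxb2 promoter at chr11:96211678-96217207 (18 absent loops) and a second Skap1 region at chr11:96602119-96605751 (15 absent loops). The first had a median of 361 CPM in bulk (237 to 739) and 67.7, 93.1, 19.6, 39.6 and 125.5 CPM in double positive libraries over all its loops. The second had 455 (289 to 836), and 127, 174, 118, 178 and 96.6 CPM. The Hoxb5 anchor at chr11:96163905-96166319 took part in 14. From the second Skap1 region a loop of 119616 bp ran to Copz2, a gene of vesicle coat, with 36 bulk read pairs (0 to 12 per library, median 2.5) and both ends in double positive loops. Its pooled bulk level was 3.04 times the floor.

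**Figure D4:**
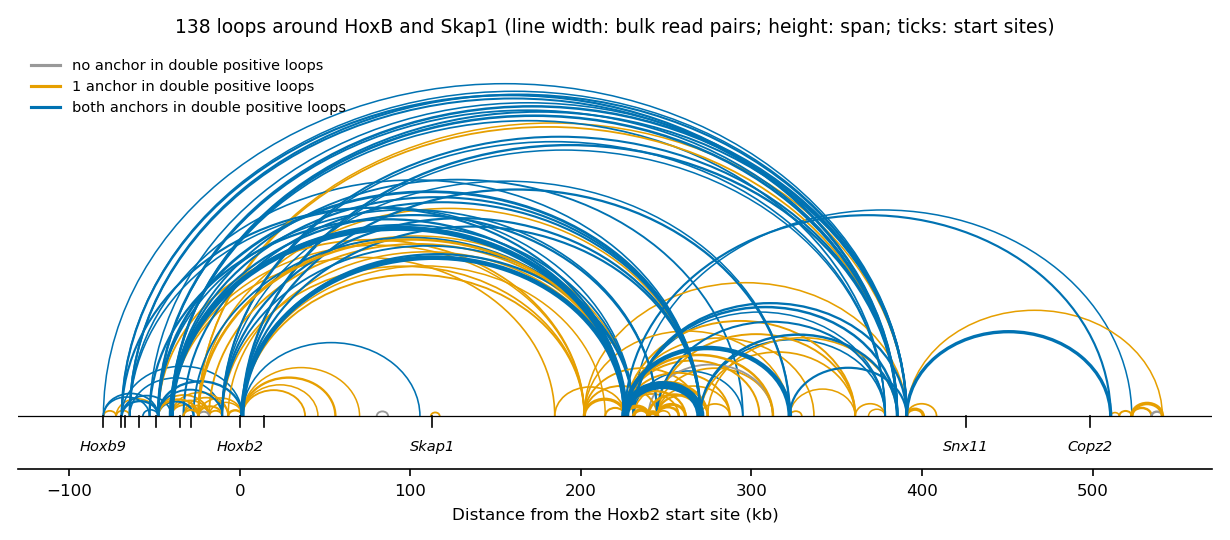
The 138 absent loops of the HoxB and Skap1 region, drawn as arcs between the middles of their anchors against the distance from the Hoxb2 start site in kb. Line width grows with bulk read pairs, and colour gives the number of anchors in double positive loops, which is 2 for 35 of the 48 long arcs from HoxB into Skap1.

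HOX genes were the list with the most absent loops. Of 39 HOX genes with a loop, 19 lay within 5 kb of an anchor of 137 absent loops with 2315 bulk read pairs, against 6.41% of all 17764 genes with a loop. The rule chose these loops by the same contrast, and genes with an absent loop had a median of 160 bulk read pairs against 32 for all genes (245 for the HOX list), so nothing is read from the share. All 19 belonged to paralogue groups 1 to 9, where 27 genes had a loop, and 0 of the 12 genes of groups 10 to 13 did. HoxB counted 8 genes with 80 absent loops, HoxC 3 with 33, HoxD 2 with 13 and HoxA 6 with 11. Both anchors lay in double positive loops in 46 of the 80 at HoxB and in 10 of the 33 at HoxC.

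For each gene the loops that are not absent ones give a second view, since absent loops are 0 by choice. Leaving absent loops out takes read pairs from the bulk libraries only. For genes with an absent loop this moves the other loops towards higher double positive than bulk values, by construction. Over these other loops every double positive library lay below every bulk library for 8 of the 19 HOX genes and above it for 1, against 3.75% and 28.8% of all genes with a loop, and 7.64% and 41.3% of the 1138 genes with an absent loop. At Hoxb3 the other loops had 421 to 1167 CPM in bulk (median 641) and 271, 186, 294, 238 and 328 CPM in double positive libraries, without overlap. At Hoxb2 they had 145 to 399 CPM (median 209) against 67.7, 93.1, 19.6, 39.6 and 125.5 CPM, again without overlap. Hoxc4, which took part in 29 absent loops with 545 read pairs, had 618 to 1837 CPM (median 861) against 542, 512, 842.5, 554 and 618 CPM, and the groups overlapped. Loops within HoxA were fewer: Hoxa3 and Hoxa4 were joined by 42 read pairs (0 to 10 per library). The TALE genes, whose proteins bind DNA with HOX factors, counted 3 of 8: Meis2 (1 loop, 53 read pairs), Meis1 (3 loops, 46) and Pbx2 (1 loop, 11).

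Genes of the RA pathway came next among the larger lists, with 10 of 25 genes at 28 absent loops and 429 read pairs, beside 6.41% of all genes with a loop. Dhrs3 codes for a reductase that turns retinal back into retinol and is itself induced by RA. It had 11 absent loops with 165 of its 395 bulk read pairs, while its other loops had 30.7 to 228 CPM in bulk (median 130) and 305, 198, 313.5, 277 and 232 CPM in double positive libraries. The absent loops thus lay at a promoter with read pairs in all 5 double positive libraries. Rara, an RA receptor gene, had 6 absent loops with 81 read pairs, and its other loops did not overlap in the upward direction, with 175 to 532 CPM against 1667, 1640, 1744, 1505 and 1487 CPM. Rarb, a receptor gene that is a direct target of RA, had 346 bulk read pairs, 62 of them in 4 absent loops, and 0 in every double positive library. Among the 10 genes, other loops in double positive libraries lay above all bulk libraries for 6 and below for 1. The shares were 41.3% and 7.64% of genes with an absent loop, and 28.8% and 3.75% of all genes with a loop. Others with an absent loop were Crabp2, Cyp26a1, Cyp26c1, Cyp26b1, Nrip1 and Rdh10, which carry, break down or make RA or, for Nrip1, code for a cofactor of its receptors.

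Neural genes had smaller counts, on lists with medians of 48.5 to 76.5 bulk and 4.0 to 8.5 double positive read pairs per gene. Neuronal differentiation factors counted 10 of 41 genes with 18 absent loops, neural progenitor factors 5 of 30 with 10, neuronal structure genes 5 of 31 with 10 and axon guidance genes 4 of 37 with 12. Among all genes with a loop 6.41% had an absent one, and no list was tested against that share. Nhlh2, a bHLH factor of newborn neurons, had 6 absent loops with 107 read pairs, and its other loops had 92.4 to 281 CPM in bulk (median 179) and 16.9, 93.1, 39.2, 39.6 and 86.9 CPM in double positive libraries. Pou3f2, a POU factor of neural progenitors, had 5 with 83, and its other loops had 46.2 to 306 CPM (median 168) against 25.4, 11.6, 0, 39.6 and 19.3 CPM, without overlap. Nr2f2, a nuclear receptor gene, had 225 bulk read pairs, 44 of them in 1 absent loop, and 0 in double positive libraries. Sox11 had 3 absent loops with 35 read pairs and 4 double positive read pairs in all. In the axon guidance list, Ephb2 had 7 with 125, and its other loops overlapped between groups, with 138 to 527 CPM against 144, 186, 176, 178 and 96.6 CPM. Ephb2 binds ephrins, and 2 ephrin genes were themselves joined by an absent loop: an anchor 3798 bp from the Efna3 TSS and an anchor at the Efna4 TSS, with a span of 9072 bp, had 33 read pairs between them (0 to 7 per library, median 2.5). Among the 24 genes of these 4 lists with an absent loop, other loops in double positive libraries lay below all bulk libraries for 9 genes and above for 1, Efna2, beside the 7.64% and 41.3% of genes with an absent loop given above.

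On the signalling lists, 17 genes had an absent loop, and the other loops of most of them overlapped between the groups: they lay below all bulk libraries in double positive cells for 2, Gli2 and Id2, and above for 2, Maml3 and Smad7. Of 27 Notch pathway genes, 6 had absent loops. Maml3, a coactivator of Notch, had 8 with 127 read pairs, yet its other loops had 158 to 458 CPM in bulk and 584, 628, 823, 634 and 676 CPM in double positive libraries, without overlap. Notch1 itself had 2 with 43. Hedgehog genes counted 3 of 15 (Gli2, Cdon and Gli3, 1 loop each), BMP and TGF-beta genes 4 of 33 with Id2 (23 read pairs) first, FGF genes 2 of 23 with Fgfr2 (43 read pairs) first, and Wnt genes 2 of 37, at Fzd3 and Fzd2. Over all genes with a loop the share with an absent loop was 6.41%.

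The endoderm and extraembryonic endoderm list had 0 of 36 genes at an absent loop, and neither did the 16 blood and endothelium genes nor the 16 neural crest and fibroblast genes. A median endoderm gene had 36 bulk and 53 double positive read pairs, and the medians of the blood and crest lists were 21.5 and 17.5 in bulk, below the 160 of genes with an absent loop. Pluripotency factors counted 2 of 22, Lin28a and Lin28b, which code for blockers of let-7 maturation and are expressed in progenitors as well. Mesoderm and heart genes counted 2 of 20 (Myl7 and Tbx6), and cadherins and adhesion genes 2 of 29 (Celsr2 and Celsr3, of planar cell polarity). Beside these stands the 6.41% of all genes with a loop, against which no list was tested.

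Immediate early genes, chromatin regulators and cell cycle genes also had absent loops. Immediate early genes counted 6 of 21, among them Cyr61 (6 loops, 86 read pairs), Egr1 and Zfp36, and for all 6 the other loops in double positive libraries lay above all bulk libraries. Chromatin regulators counted 7 of 43, and cell cycle and MYC genes 4 of 30, with Mycl1 (2 loops, 56 read pairs) first. All genes with a loop had a share of 6.41%. At Cyr61 the other loops had 76.8 to 301 CPM in bulk and 465, 477, 666, 396 and 589 CPM in double positive libraries. Over all 1138 genes with an absent loop, the double positive values of the other loops lay below all bulk values for 87 (7.64%) and above them for 470 (41.3%), against 3.75% and 28.8% of all genes. Genes with an absent loop had more bulk read pairs than a median gene, as given above. Leaving out their absent loops also removed bulk read pairs only, which raises the share above. The part of depth and of this removal in these shares was not tested.

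**Figure D5:**
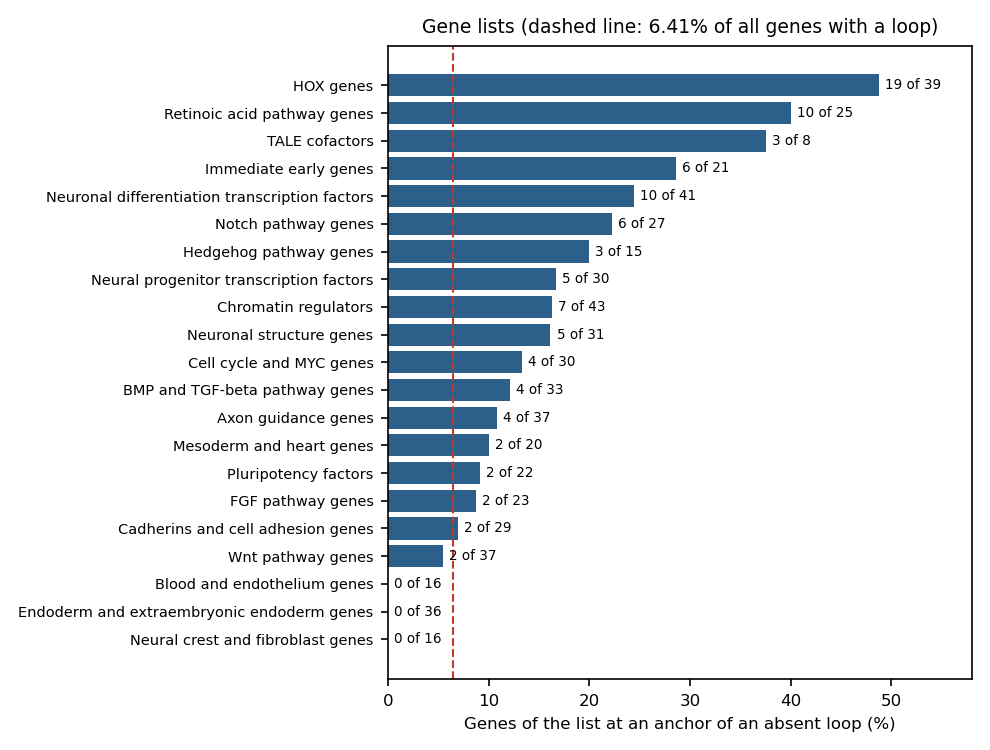
Percent of the genes of each of the 21 lists that lie within 5 kb of an anchor of an absent loop, among list genes with any loop (counts beside the bars). The dashed line is the 6.41% of all genes with a loop, HOX genes (19 of 39) have the longest bar, and 3 lists have none.

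At 68 of the 1138 genes the double positive libraries had 0 read pairs in any loop near the TSS, against 40.9% of all 17764 genes with a loop, whose median of 32 bulk read pairs was lower than the 160 of genes with an absent loop. Those with the most read pairs in absent loops, chosen after their values were seen, were Auts2 with 193 of 644 bulk read pairs in 14 absent loops, A930004D18Rik with 141 of 286 in 7, Frmd4a with 94 of 642 in 5 and Vps13d with 78 of 218 in 5. Auts2 codes for a nuclear protein linked to neural development, and its other loops had 174 to 458 CPM in bulk libraries with a median of 266. A930004D18Rik was also joined to its neighbour 2810030E01Rik by 30 read pairs (0 to 5 per library). A 15-loop anchor in Vps13d at chr4:144587685-144591052 did have double positive read pairs, with 127, 93.1, 176, 218 and 106 CPM, against 151 to 562 CPM in bulk libraries.

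MicroRNA genes were looked for near the anchors as well, a step added after values were seen. Of 26 such genes within 5 kb of an anchor of an absent loop, 23 matched a mature sequence in RefSeq (GRCm38.p6). Mature sequences are printed for 4 genes in HOX clusters and for the 2 with the most bulk read pairs in absent loops among 4 without double positive read pairs, with the seed, bases 2 to 8, in capitals.
mmu-miR-10a-5p: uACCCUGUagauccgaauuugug
mmu-miR-10b-5p: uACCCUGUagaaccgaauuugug
mmu-miR-196a-5p: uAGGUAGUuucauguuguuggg
mmu-miR-615-3p: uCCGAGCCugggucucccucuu
mmu-miR-9-5p: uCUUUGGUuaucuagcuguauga
mmu-miR-9-3p: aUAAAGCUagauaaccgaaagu
mmu-miR-148b-3p: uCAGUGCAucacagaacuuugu
miR-10a and miR-10b share the seed ACCCUGU and lie in the HoxB and HoxD clusters. Mir10a, at chr11:96178479-96178588 (mm9) beside Hoxb4, had 18 absent loops with 330 of its 1145 bulk read pairs and 102 double positive read pairs in other loops. Mir10b on chromosome 2 had 4 with 50, Mir196a-1 in HoxB had 4 with 50, and Mir615, within Hoxc5, had 16 with 286 of 1132 bulk read pairs. Mir9-2, whose arms are miR-9-5p and miR-9-3p, is expressed in neural progenitors. It lies at chr13:83878411-83878497 and had 5 absent loops with 103 of 251 bulk read pairs and 0 double positive read pairs. Mir148b at chr15:103115556-103115652 had 4 with 64 of 251 and also 0. The neighbours Mir192 and Mir194-2 on chromosome 19 had 1 absent loop with 10 of 108 bulk read pairs and 0 double positive read pairs. These are counts of contacts near the gene and no measure of the microRNA.

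Motifs of regulator families were counted in the central 1 kb of the anchors, on both strands, as a description. The HOX-PBX motif TGATTNAT was found in 13.3% of the 3779 anchors of absent loops, in 8.73% of the 2715 anchors of shared loops and in 15.9% of all 216081 anchors. AGATAA, the GATA core, was found in 38.1%, 28.3% and 48.1%, and the E-box CAGATG in 54.8%, 46.8% and 57.1%. The nuclear receptor half-site AGGTCA, which RA receptors bind in pairs, was found in 49.0%, 44.3% and 49.3%. In each of these 4 the anchors of absent loops lay between those of shared loops and all anchors. A promoter lay at 33.4% of the anchors of absent and 67.5% of those of shared loops, and its part in this order was not tested. The E-box CAGCTG did not follow that order, with 46.8%, 44.9% and 41.4%. Anchors shared between the sets were counted in both.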

How the data were processed

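H3K27ac HiChIP of 12 bulk and 5 EpCAM/CD38 double positive libraries of RA-treated EBs was analysed. The authors aligned reads to mm9 with HiC-Pro and called loops with hichipper. The deposited values are counts of read pairs per loop and library, without normalization, and a loop without a read pair in a library is not in its list. The sources used here do not state which samples' peaks gave the anchors.

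Anchors that overlapped in any of the 17 libraries were merged, which left 216081 anchors and 1211657 loops, and 700 read pairs within 1 joined anchor were dropped. Genes come from the GENCODE annotation of mm9, and a promoter anchor lies within 5 kb of the TSS of a protein-coding gene. The minimum was 10 bulk read pairs. Totals per library were 50508 to 241068 read pairs, and the counting error of a single loop is large. Python 3.11.15, numpy 2.4.6, pandas 2.3.3 and scipy 1.17.1 were used, with exact permutation tests over libraries. These were tested on simulated data, apart from the left out version with both anchors in double positive loops. For the left out shares the simulated counts were Poisson, without further spread between libraries. On these counts the test that left out 1 library at a time called differences where none was simulated, so its p is not given. A version that left out 1 library of each group was added. The bulk against double positive contrast chose the loops and was tested only on left out libraries. Libraries are replicates by the labels' numbers, and p-values measure the spread between them. Correlations of deviations between bulk and double positive libraries of the same number lay between -0.0723 and 0.00938 over 276 loops, so the numbers do not pair them.

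Named loops are the 12 with the most bulk read pairs, the 6 with the most among those with both anchors in double positive loops, and the 6 with the most among those joining TSS of different genes, passing over shared anchors within a set. Named genes lie at these loops or are up to 3 per list with the most read pairs in absent loops. Of these, 1 loop and a few genes are not reported here. The choice of loops, the 21 gene lists and the motifs were made with earlier results of these data known. Other minimums, bins, anchors, spans, thinning and left out replicates were tried.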

Additional observations from a re-analysis of the deposited data

Results flagged for a closer look

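In 3 of 55 groups of 5 double positive libraries, 1 library stood apart by a gap of more than 0.71 of the range, and chance gives about 1 in 20. All 3 concern loops other than the absent ones. At Lin28a, double positive replicate 4 had 178 CPM, and the other 4 had 126 to 140. At Cdk4, replicate 5 had 975 CPM, against 1078 to 1089 in the others. At Egr1, replicate 2 had 744 CPM, against 599 to 635.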

How the results depend on the processing

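Under the alternatives, 92 of 101 values stayed as in the main analysis in direction and in size or call, 6 moved, 2 reversed and 1 became weaker. Of the 92, 23 are left out shares, most of them labelled by the test whose p is not given. For those only the direction is read. The band for an unchanged number of absent loops was wide, and took in 4047 with the left out autosomal regions included. The number of absent loops was 395 with at least 20 bulk read pairs, 197 with both anchors in double positive loops, 997 with spans of at least 20 kb, 6594 in bins of 25 kb and 227 with each library thinned to the smallest total, and the cause was not tested beyond the smaller or larger number of loops and read pairs each admits. Leaving out 1 library gave 1772 to 2822, with 1772 without bulk replicate 2, the deepest library. The span difference reversed to 66172 bp with both anchors in double positive loops and to 9095 bp for spans of at least 20 kb, and the cause was not tested. Without 1 library, the span difference was -8087 to -7919 bp, the promoter difference -26.3 to -25.7 and the GC difference -2.78 to -2.74 percentage points, and the left out share difference 1.21 to 1.72. With the replicate number as a block, the latter was 1.95 over 5 pairs, where an exact permutation test cannot go below p = 0.0625. Absence is a count of 0 in a pool of 409248 read pairs and is read only down to the floor of 7.33 CPM.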
